A study of Caenorhabditis elegans with 12 samples.

Results

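In the deposited transcript tables each transcript carries a locus identifier and, for most, a gene name, and 3605 of the 37450 locus identifiers carried 2 or more different gene names. These merged loci are described here by how their summed value was divided among their names. A further 33614 loci carried 1 name and 231 carried none. Of the merged loci, 680 had a mean summed value of at least 10 RPKM (read numbers scaled to transcript length and library size) over all libraries, and the text below is about these unless it says otherwise. They were chosen by the measured values of all 12 libraries, so the level of the loci is a description and is not tested. Of the other merged loci, 2376 were listed at 0 in every library and 549 had a mean above 0 and under 10.

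In Caenorhabditis elegans many genes lie in operons, runs of closely spaced genes on one strand that are transcribed together from a shared promoter. The shared precursor is cut into single mRNAs by 3' end formation and by trans-splicing, in which a short spliced leader is joined to the start of each mRNA. Once cut, the mRNAs of an operon are separate molecules whose levels can differ. Transcript assembly programs join overlapping or abutting read evidence into loci, so that closely spaced neighbours can end up under one locus identifier, with each transcript named for the annotated gene it was matched to.

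The study asked whether exposure of an ancestor leaves a trace in the germline of later generations. P0 worms were kept for 48 h with water, with 0.1% DMSO (a common solvent) or with 100 µM bisphenol A (BPA, a plastics chemical with endocrine activity), and gonads were dissected by needle from adults of generation F3 grown at 20 °C. There were 4 libraries in each group, 12 in all, and the groups are called water, DMSO and BPA for the ancestral exposure. No strain or mutation is given for any group, and the labels do not say in which solvent BPA was given. Nor do they say that the 4 libraries came from separate cultures, so p-values measure the spread between these libraries, which may be in part technical.

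The tables give no read counts, so the depth behind a value is unknown. The libraries summed to between 440750 (water 1) and 526660 RPKM (water 3), and merged loci held between 18.5% and 21.8% of each library. Oocyte markers summed to 1232 to 3508 RPKM and germ cell markers to 1304 to 2292 RPKM, whereas the summed sperm markers stayed between 0.111 and 12.1 RPKM. The oocyte markers include puf-5 and the neuron markers snb-1, which are names at merged loci. Meiotic prophase markers summed to 76.0 to 128.5 RPKM, and 1 of these 4 genes was listed at 0 in every library. Intestine markers ranged from 8.90 to 345 RPKM, with the highest value in DMSO. Markers of body muscle, neurons, hypodermis and gonadal sheath each summed to less than 30 RPKM in every library. Water 1 had the lowest total and the most merged loci led by another name than usual, and results that rest on it are given with and without it.

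The 680 loci held 1574 gene names. There were 515 loci with 2 names, 130 with 3, 24 with 4, 8 with 5 and 3 with 6. By the WBcel235 annotation, 1370 names were protein-coding genes, 65 were unclassified non-coding RNAs, 43 were piRNAs, 18 snoRNAs, 15 pseudogenes, 11 snRNAs, 4 lincRNAs and 1 an antisense RNA, and 47 names had no match. piRNAs are short RNAs that guide Argonaute proteins in the germline. They dominated the merged loci with low or no values: 2362 of the 3605 loci carried piRNA names alone, and 0 of those reached a mean of 10. Whether libraries of this kind capture RNAs this short was not tested, so a value of 0 is not read as absence of a piRNA. Among all 5567 piRNA names at merged loci, 5490 were listed at 0 in every library.

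Most of the expressed merged loci held neighbours on the same strand. In WBcel235, the genes of 476 of the 680 loci (70%) lay in tandem on 1 strand without overlap, with a median gap of 111 bases (quartiles 97 and 311.5), where the largest gap of each locus was taken. That largest gap was up to 500 bases at 389 of the 476. Genes overlapped end to end on 1 strand at 81 loci and were nested on 1 strand at 61. At 15 loci the genes lay on both strands (12 in tandem and 3 nested), 30 loci had fewer than 2 names with an annotated gene, and at 17 the names mapped to different chromosomes. The names come from the authors' older genome build, and 13 tandem loci had gaps over 10000 bases, so some names may no longer stand for the gene the locus covered. Among the loci described below, such gaps include 244520 bases at the locus of C12D8.1, rde-1, C27H6.8 and rmd-2, and 148470 bases at that of EEED8.16, pink-1 and sls-2.3.

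At 343 loci the 2 leading names were coding genes on 1 strand and the second held at least 5% of the locus. Their median gap was 108 bases (quartiles 92.0 and 429). The upstream gene had the higher mean at 185 of the 343, and the higher value at 174 (DMSO 3) to 188 (BPA 4) in single libraries. The median difference was 0.22 on the log2 scale in favour of the upstream gene. A second name held at least 20% at 167 of the 476 tandem loci (35.1%), at 27 of the 81 overlapping ones (33.3%) and at 9 of the 61 nested ones (14.8%), and these differences were not tested.

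The division of a locus among its names was mostly uneven. Shares are given here as a name's mean over the locus's mean, unless a library is named. The leading name held a median of 91.9% of its locus, with a lowest value of 35.6%. It held over 99% at 220 loci, whereas a second name reached 5% at 375 loci and 20% at 214. The locus sums themselves had a median of 56.8 RPKM (quartiles 35.2 and 102) and a highest value of 16262 RPKM.

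The division was also unstable between libraries, here counted over all 12 without regard to group. At 202 of the 680 loci (29.7%) another name than the overall leader led in at least 1 library. At 61 of these it did so in exactly 1 library and at 62 in 4 or more. Of the 214 loci whose second name held at least 20%, 161 changed their leading name. Each library had between 34 (BPA 4) and 79 (water 1) loci led by another name, and the other libraries lay between 41 and 56. Without water 1, leading names changed at 181 loci. The SD of the leading share over 12 libraries had a median of 5.86 percentage points, was under 1 point at 211 loci and exceeded 20 points at 126.

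Among the 10 loci with the most variable leading share was that of the oocyte gene puf-5. It encodes a Pumilio-family protein that represses translation of maternal mRNAs in oocytes, and it shares a locus with F54C9.9, 261 bases away on the same strand. In water 1 to 4, puf-5 was listed at 1.94, 423, 0 and 354 RPKM. In DMSO 1 to 4 it stood at 487, 389, 0 and 16.6 RPKM, and in BPA 1 to 4 at 498, 447, 0 and 360 RPKM. Each group thus held libraries at 16.6 RPKM or less and libraries at 354 RPKM or more, and the groups overlapped throughout. F54C9.9 ran the other way, at 420, 197, 323 and 44.9 RPKM in the water libraries, 53.8, 75.4, 372 and 294 RPKM in the DMSO libraries and 39.3, 53.9, 341 and 63.1 RPKM in BPA. The sum of the locus varied far less, from 311 to 620 RPKM.

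The same held for another oocyte gene. oma-2 encodes a CCCH zinc-finger protein needed for oocytes to mature, and its locus also holds vars-1, a valyl-tRNA synthetase. oma-2 was listed at 78.6, 0, 150 and 123 RPKM in the water libraries, 163, 0, 186 and 0 RPKM in the DMSO libraries, and 0, 136, 176 and 0 RPKM in BPA. vars-1 stood at 17.7, 132, 22.8 and 33.9 RPKM in the water libraries, 26.1, 120, 28.4 and 143 RPKM in the DMSO libraries, and 168, 25.8, 24.5 and 128 RPKM in BPA. vars-1 was at least 120 RPKM in the 5 libraries where oma-2 was listed at 0 and at most 33.9 RPKM in the other 7.

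**Figure D1:**
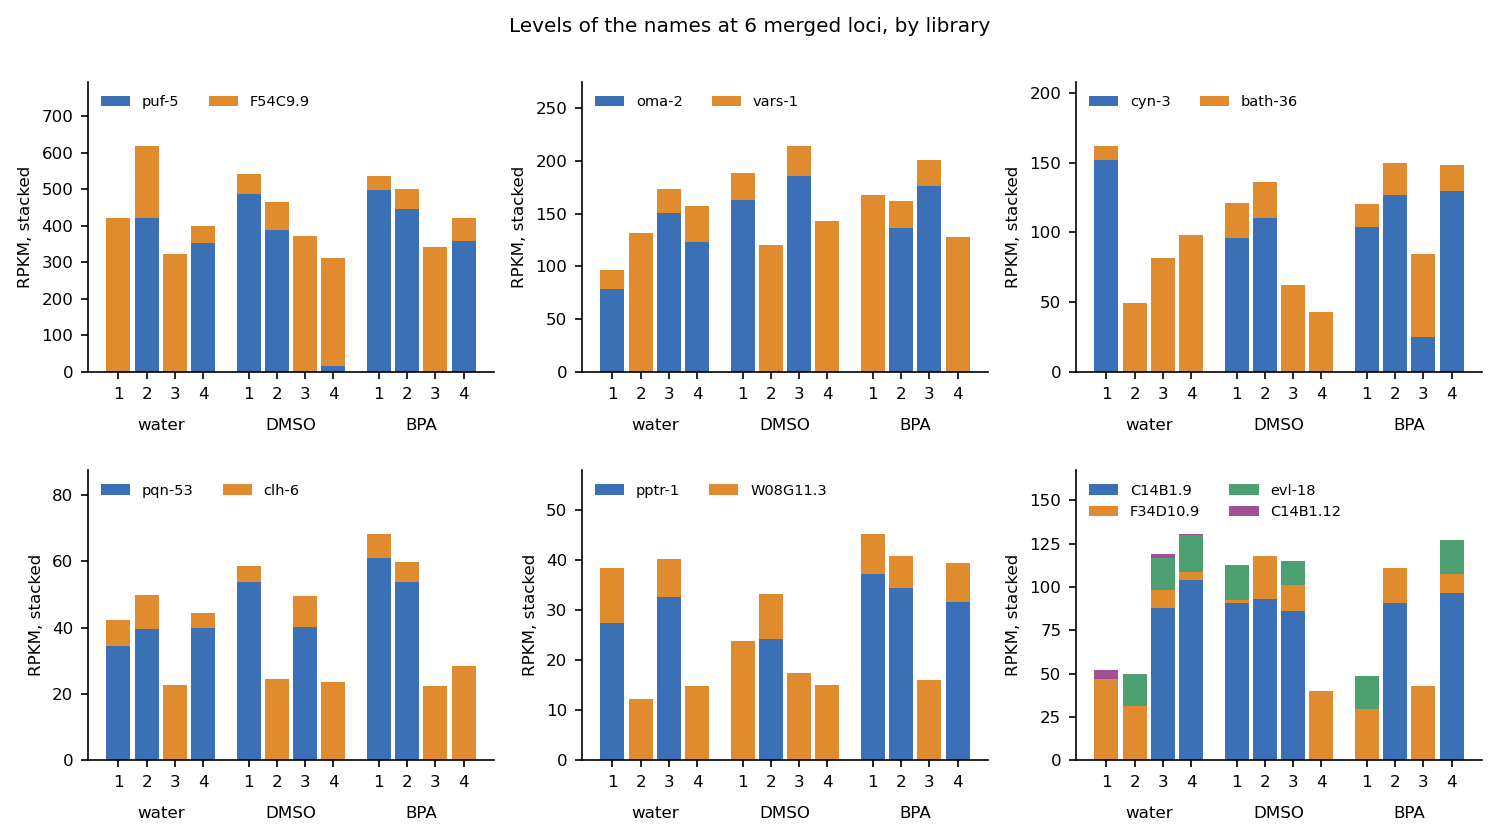
Stacked RPKM values of the names at 6 merged loci (y axis) in each of the 12 libraries (x axis, replicate number within group), for names with a mean of at least 0.5 RPKM. Each bar is 1 library and each colour 1 name: puf-5, oma-2, cyn-3, pqn-53, pptr-1 and C14B1.9 each fall to 0 or near it in some libraries of at least 2 groups while another name at the locus is present.

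The same alternation occurred at loci of other functions. cyn-3, a cyclophilin (a peptidyl-prolyl isomerase), was listed at 152 RPKM in water 1 and at 0 in water 2 to 4, and at 95.7, 111, 0 and 0 RPKM in the DMSO libraries. In BPA it stood at 104, 126, 25.4 and 130 RPKM. Its partner bath-36, of the MATH and BTB domain family, was at 10.2 RPKM in water 1 and at 49.4, 81.8 and 98.1 RPKM in the other water libraries.

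pqn-53, which has a glutamine- and asparagine-rich domain, shared its locus with clh-6, a CLC-type chloride channel. pqn-53 was listed at 34.5, 39.7, 0 and 39.8 RPKM in the water libraries, 53.8, 0, 40.3 and 0 RPKM in the DMSO libraries, and 61.0, 53.7, 0 and 0 RPKM in BPA. clh-6 was between 22.4 and 28.4 RPKM in the 5 libraries with pqn-53 at 0 and between 4.56 and 10.3 RPKM in the other 7. Here the sum did not stay level: it was 22.4 to 28.4 RPKM in the first libraries and 42.2 to 68.3 RPKM in the others.

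pptr-1, a regulatory subunit of protein phosphatase 2A that acts in P granule partitioning, was listed at 0 in 6 libraries and at 24.2 to 37.3 RPKM in the others. Both kinds of library occurred in every group: 2 of 4 in water, 3 of 4 in DMSO and 1 of 4 in BPA were at 0. Its partner W08G11.3 ranged from 6.43 to 23.8 RPKM. C14B1.9 was listed at 0 in 5 libraries and at 85.9 to 104 RPKM in the other 7. tre-1, a trehalase, was listed at 0 in 7 libraries and at 45.1, 158, 656, 851 and 387 RPKM in water 1, DMSO 1, DMSO 4, BPA 3 and BPA 4, beside xpg-1, an endonuclease of nucleotide excision repair, at 34.1 to 308 RPKM.

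At the low end of expression, Y45F3A.9 and Y45F3A.8 overlap by 106 bases on 1 strand. Y45F3A.9 was listed at 0 in water 1, DMSO 2 and BPA 3 and at 9.96 to 16.1 RPKM elsewhere. Y45F3A.8 was at 11, 9.36 and 10.0 RPKM in those same 3 libraries and at no more than 0.111 RPKM in the rest. The locus sum lay between 9.36 and 16.2 RPKM. Y52E8A.2 was listed at 0 in 6 libraries, 2 in each group, and at 16.6 to 57.1 RPKM in the others.

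Across the 680 loci, 1090 names reached 10 RPKM in at least 1 library, and 230 of them (21.1%) were listed at 0 in another. Such a range was also found for 2 of the 680 locus sums (0.294%) and for 28 of the 3359 sums of loci with 1 name and a mean of at least 10 RPKM (0.834%). Both kinds of sum had to have a mean of at least 10 RPKM, whereas the names did not. The percentage for names is therefore not on like terms with those for sums. The 230 names lay at 207 loci and 46 of them led their locus. Each library had between 85 (DMSO 2) and 96 (BPA 3) of them at 0. In all 3 groups, 122 of the names had a library at 0, and 53 had in every group both a library at 0 and one at 10 RPKM or more.

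Where such a name was at 0, the rest of its locus was higher than where the name was at 10 RPKM or more for 179 of the 230. The median log2 ratio of the rest was 0.32 (228 names), whereas that of the locus sum was -0.42. At the median, the rest of the locus was thus higher and the sum lower in the libraries with the name at 0. Without water 1, the number of names at 0 in 1 library and at 10 RPKM in another was 212. Since these names were picked for their range, the counts are a description. An exact 0 in such tables can be a failed estimate as well as absent RNA, which was not tested.

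The spread between libraries of 1 group was larger for names than for sums. For the 923 names at merged loci with a mean of at least 10 RPKM, the SD of log2(RPKM + 1) within groups had a median of 0.40, and 185 (20.0%) exceeded 1. For the 680 sums of merged loci the median was 0.32 and 17 (2.50%) exceeded 1. For the 3359 loci with 1 name the median was 0.29 and 93 (2.77%) exceeded 1. Names exceeded both kinds of sum within each level: at 10 to 50 RPKM, an SD over 1 was found for 24.5% of names, 4.08% of merged sums and 3.92% of sums of 1 name, and at 50 to 200 RPKM for 12.1%, 1.27% and 0.955%. Without water 1 the 3 medians fell to 0.31, 0.24 and 0.20.

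**Figure D2:**
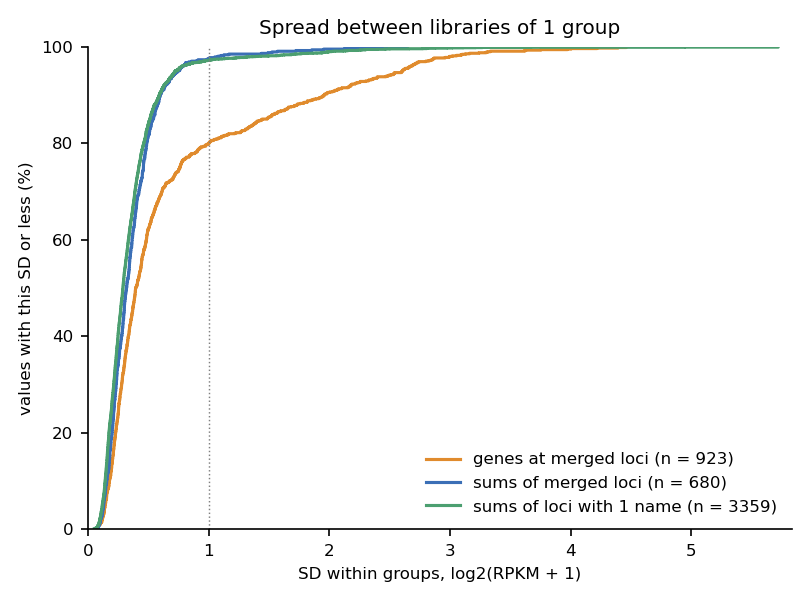
Cumulative share of values (y axis, percent) by their SD within groups on the log2(RPKM + 1) scale (x axis), for 923 names at merged loci, 680 sums of merged loci and 3359 sums of loci with 1 name, all with a mean of at least 10 RPKM. The line for names lies to the right of both lines for sums, and 20.0% of names lie past an SD of 1 (dotted).

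The 2 leading names of a locus tended to vary against each other. Over the 12 libraries, with group means removed, the Pearson r of their log2 values had a median of -0.45 over the 214 loci whose second name held at least 20%. It was below -0.5 at 101 loci and above 0.5 at 26, and negative at 151. For the 185 pairs with both names at a mean of 10 RPKM or more the median was -0.44. As a reference, 196 pairs of same-strand neighbours up to 500 bases apart that stood at separate loci, both at 10 RPKM or more and the lower at 20% or more of the pair, had a median of 0.10, with 29 below -0.5 and 53 above 0.5. The merged pairs were limited neither by strand nor by distance, and the 214 not by a minimum RPKM of each name. The sets are therefore not on like terms. Without water 1 the medians of the 185 and the 196 pairs were -0.52 and 0.12. The points are the same libraries in every pair and share their normalization, so these values are descriptions.

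**Figure D3:**
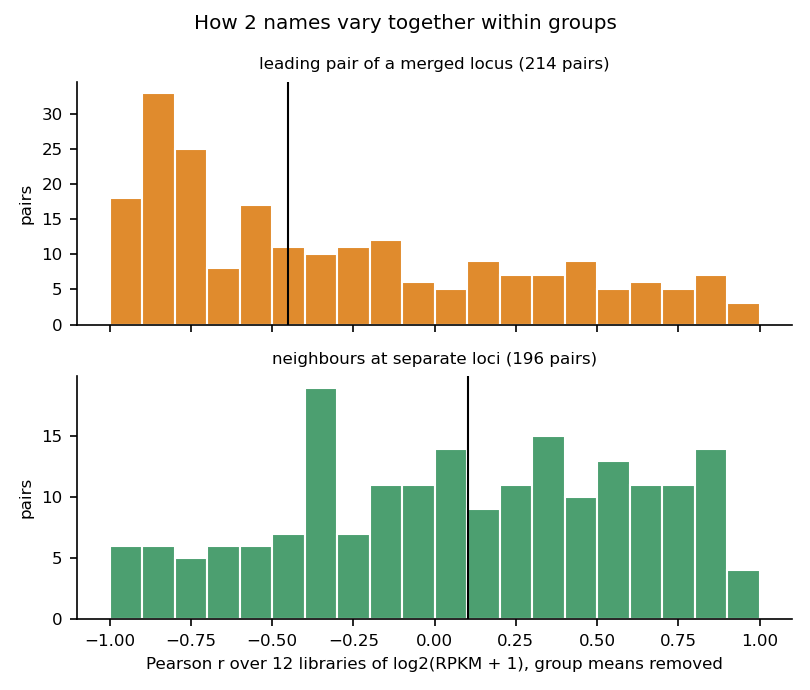
Number of gene pairs (y axis) by the Pearson r of their log2(RPKM + 1) values over 12 libraries with group means removed (x axis), for the 214 leading pairs of merged loci (top) and 196 neighbouring pairs at separate loci (bottom). Black lines mark the medians, -0.45 and 0.10, and most of the merged pairs lie below 0 (151 of 214). Unlike the bottom set, the top set was not limited by strand, distance or a minimum RPKM of each name.

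Other loci divided in a constant ratio. Among loci whose second name held at least 20%, the smallest SD of the leading share was 0.950 points, at H28O16.1 with 21ur-12279. H28O16.1, now atp-1, encodes the alpha subunit of mitochondrial ATP synthase, and in WBcel235 the piRNA gene lies inside it on the same strand. The transcript named 21ur-12279 held between 38.6% and 41.5% of the locus in every library, although the sum ran from 1074 RPKM in water 1 to 7587 RPKM in water 2. The tables do not give that transcript's length, so the value cannot be read as the level of a piRNA.

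act-2 and act-1, both actin genes, shared a locus that summed to 459 RPKM in water 1 and to 657 to 896 RPKM elsewhere, and act-2 held 49.7% to 60.1%. The 2 genes are near-identical, so the split between them is uncertain. The tandem genes T24F1.2 (samp-1, a protein of the inner nuclear membrane) and raga-1 (a Rag GTPase of the TOR pathway) lie 114 bases apart. T24F1.2 stood at 46.7 to 67.0 RPKM and raga-1 at 33.1 to 73.6 RPKM, and T24F1.2 held 45.1% to 58.5%. C28A5.1 held 44.1% to 58.3% beside C28A5.2, and B0250.8 held 49.9% to 64.8% beside B0250.7.

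Further even loci included Y104H12D.2 with mdt-20, a Mediator subunit (62.2% to 72.1%), and rpn-9, of the proteasome's lid, with cchl-1, a haem lyase for cytochrome c (rpn-9 at 61.7% to 72.4%). Y47G6A.21 beside Y47G6A.22 (56.7% to 66.3%) and hut-1 beside Y111B2A.24, now the centriole gene sas-1 (71.0% to 81.7%), were also steady. At C17E4.3 the leading name held a steady 50.6% to 59.3% while the 2 other names alternated: pabp-2, which binds nuclear poly(A) tails, was listed at 0 in 5 libraries and at 21.1 to 37.3 RPKM in the others, and C17E4.11 was at 36.6 to 44.3 RPKM in those 5 and at 7.88 to 20.7 RPKM in the others. A steady leading share thus did not mean that every name at the locus was steady.

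Of the loci where at least 2 names held 5% or more, the highest was that of rpl-12, a protein of the large ribosomal subunit, with tag-115, 172 bases away. rpl-12 was at 2662 RPKM in water 1 and 1616 RPKM in DMSO 1. The other 10 libraries ranged from 13081 to 23612 RPKM. tag-115 was at 4088 and 5711 RPKM in those 2 libraries and at 11.8 to 144 RPKM in the others. The share of tag-115 at this locus therefore came from 2 libraries of different groups. rps-24, of the small ribosomal subunit, held 87.1% to 96.2% beside T07A9.14, and rpl-26 stood at 1241.5 RPKM in water 1 and at 234 to 592 RPKM elsewhere, beside suf-1, a cleavage factor of mRNA 3' ends, at 66.3 to 109 RPKM.

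cey-2, a Y-box RNA-binding protein of the germline, was at 87.7 to 1139 RPKM, and F46F11.7, 109 bases away, at 13.5 to 755 RPKM. cey-2 held as little as 10.4% (water 4) and as much as 96.9% (DMSO 1). F23A7.4 and F23A7.8 kept a steady ratio, with F23A7.4 at 75.2% to 83.4%, while their sum ran from 2234 RPKM in water 2 to 16022 RPKM in water 3. ani-2, an anillin that keeps the germ cells' bridges open, was at 89.0 RPKM in water 1 and 311 to 820 RPKM elsewhere, beside K10B2.4 at 81.0 to 140 RPKM. C12D8.1, now fubl-1, led the locus that also carries rde-1, the Argonaute of the RNA interference response, with rde-1 at 29.2 to 68.2 RPKM. At D2030.7 and D2030.8 the leading name was again lowest in water 1, at 89.4 RPKM against 342 to 691 RPKM.

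Of the 40961 different names in the tables, 7915 were at merged loci, most of them piRNA names. Of 17 listed oocyte and eggshell genes, puf-5 and oma-2 were at one, and of 18 germ granule and small RNA genes, glh-4 alone, a Vasa-related helicase of P granules. glh-4 stood at 31.0 to 58.5 RPKM, and its partner T12F5.2 at 25.5 RPKM in water 1 and at 0 to 6.29 RPKM elsewhere. Of 21 meiosis genes 2 were at merged loci: zhp-3, a RING-finger protein of crossover sites, at 3.41 to 34.5 RPKM, and coh-4, a meiotic cohesin kleisin. coh-4 was at 23.5 RPKM in BPA 2 and 53.3 to 73.2 RPKM elsewhere, and its overlapping partner Y45G5AM.7 was at 75.1 RPKM in BPA 2 and at most 9.04 RPKM elsewhere.

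Of 20 chromatin genes 4 were at merged loci: spr-5, met-2, lin-37 and mes-6 (a subunit of the Polycomb repressive complex). spr-5, a demethylase of histone H3 lysine 4, was listed at 0 in water 3 and DMSO 1 and at 0.627 RPKM in DMSO 3. The other 9 libraries held 28.8 to 46.2 RPKM. Y40B1B.8, at the same locus, was at 49.4 to 58.9 RPKM in those 3 and at 17.9 to 40 RPKM in the others. The 3 low libraries belonged to water and DMSO, which also held 5 of the 9 higher ones.

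Of 78 ribosomal protein genes 17 were at merged loci, 16 of them at the expressed ones, and 9 led their locus. rpl-43, rpl-36, rps-28 and rps-16 were listed at 0 in all 12 libraries, although these proteins are parts of every cytoplasmic ribosome. Among the 61 ribosomal protein genes at other loci, 2 were listed at 0 throughout. Of 64 mitochondrial ribosomal protein genes 25 were at merged loci, where 7 led and 16 held 5% to 95% of the locus. mrpl-23, mrps-26 and mrps-33 were listed at 0 throughout, against 1 of the 39 at other loci. Counting genes listed at 0 in at least 1 library gave 15 of 25 at merged loci and 4 of 39 at others.

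mrps-18A was at 13.4 to 184 RPKM, beside iglr-2 at 32.3 to 65.3 RPKM, and mrps-18C at 17.9 to 68.2 RPKM, beside eri-9, of the endogenous RNA interference pathway, at 73.0 to 91.0 RPKM. mrpl-10 was at 0 in BPA 3 and at 1.77 to 40.1 RPKM elsewhere, beside nst-1, a nucleostemin, at 34.1 to 185 RPKM. Of 32 proteasome genes 6 were at merged loci. pbs-3, of the catalytic core, was at 120 to 159 RPKM in water 1, water 2, DMSO 2 and DMSO 3 and listed at 0 in the other 8 libraries. ulp-2, a SUMO protease 22 bases away, was at 16.7 RPKM in water 1 and at 65.7 to 138 RPKM elsewhere. pas-1 was at 91.2 RPKM in water 2, 53.4 RPKM in water 4 and 66.4 RPKM in BPA 2, and at 8.43 RPKM or less elsewhere.

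Among all coding names at the 680 loci, 252 of 1370 had a mean under 1 RPKM and 127 were listed at 0 in every library. Names of non-coding RNAs mostly held little: 41 of the 43 piRNA names and 95 of the 99 names of other non-coding RNAs at these loci had a mean under 1 RPKM. The exceptions include 1 piRNA name and 2 names of other non-coding RNAs that led their locus. CD4.10 was one of 2 names of other non-coding RNAs that held 5% to 95% of their locus, with 0 to 3.77 RPKM beside CD4.8 at 8.21 to 12.2 RPKM.

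Of 15 listed names from textbook operons 14 were in the tables, and 8 of these were at merged loci, in 4 loci. mev-1, the cytochrome b subunit of succinate dehydrogenase, shared its locus with ced-9, the BCL-2 homolog that blocks apoptosis. mev-1 stood at 46.9 to 73.9 RPKM and ced-9 at 3.51 to 8.12 RPKM, and mev-1 held 87.5% to 95.2% in every library. fib-1, the nucleolar methyltransferase fibrillarin, was at 644 to 1496 RPKM, while rps-16 beside it was listed at 0 throughout. lin-15B and lin-15A, repressors of vulval fates in the synMuv classes, were at 4.07 to 11.1 and 0 to 9.91 RPKM. gpd-3 and gpd-2, glyceraldehyde 3-phosphate dehydrogenases, were at 0.519 to 14 and 0.493 to 7.70 RPKM, and mai-1 was listed at 0. gpd-2 and gpd-3 are near-identical, so their split is uncertain.

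The loci with the most names repeated these patterns. The locus of C14A4.3 carried 6 names, among them crn-3 (a nuclease related to the exosome), dohh-1 (deoxyhypusine hydroxylase), dap-3 and mrps-22 (both of the mitochondrial ribosome) and rpb-6 (an RNA polymerase subunit). crn-3 was at 115 RPKM in water 1, at 94.3, 86.1 and 93.1 RPKM in DMSO 1, 2 and 4, and at 1.93 to 12.7 RPKM in the other 8 libraries. C14A4.3 was at 31.6 to 39.5 RPKM in the libraries with high crn-3 and at 57.8 to 64.1 RPKM in the others. rpb-6 was listed at 0 throughout.

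epg-4, an autophagy gene, led another locus with 6 names, at 46.6 RPKM in water 1, 52.5 RPKM in DMSO 1, 51.1 RPKM in DMSO 3 and 144 to 256 RPKM elsewhere, and rpl-36 there was listed at 0. mrps-7 led the third, at 1.47 to 23.7 RPKM. At the locus of pfd-6, a prefoldin subunit, pfd-6 was at 225 to 359 RPKM and rde-2, of the RNA interference pathway, at 19.3 to 49.6 RPKM, while hint-1 was listed at 0 in 4 libraries. selb-1 led a locus of 5 names at 28.4 to 64.3 RPKM.

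Whether the ancestral exposure shifted the division of a locus was tested on the log2 ratio of a name's value to the rest of its locus, each with 1 RPKM added. Of the 1574 names, 842 at 399 loci had at least 1 RPKM in at least 4 libraries, as did the rest of their locus. limma was fitted over all 12 libraries, and p-values were adjusted by Benjamini-Hochberg over the 842 rows with a threshold of 0.05. At a locus with 2 names the 2 rows mirror each other, so loci are counted too. The 3 comparisons share groups and are not independent of each other. In bulk gonads, fewer cells of a type and less RNA per cell cannot be told apart.

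Few divisions differed between groups. For BPA minus DMSO 4 rows at 2 loci passed (0.475% of the 842), for BPA minus water 2 rows at 1 locus (0.238%), and for DMSO minus water 2 rows at 1 locus (0.238%). At an unadjusted p under 0.05 there were 28, 30 and 30 rows. Groups did not overlap in 19 rows (2.26%), 11 rows (1.31%) and 16 rows (1.9%). The 95% interval of a row's difference had a median half-width of 1.91 on the log2 scale, so most rows could show only large shifts. The leading share differed by over 20 points between group means at 37, 41 and 35 of the 399 loci.

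**Figure D4:**
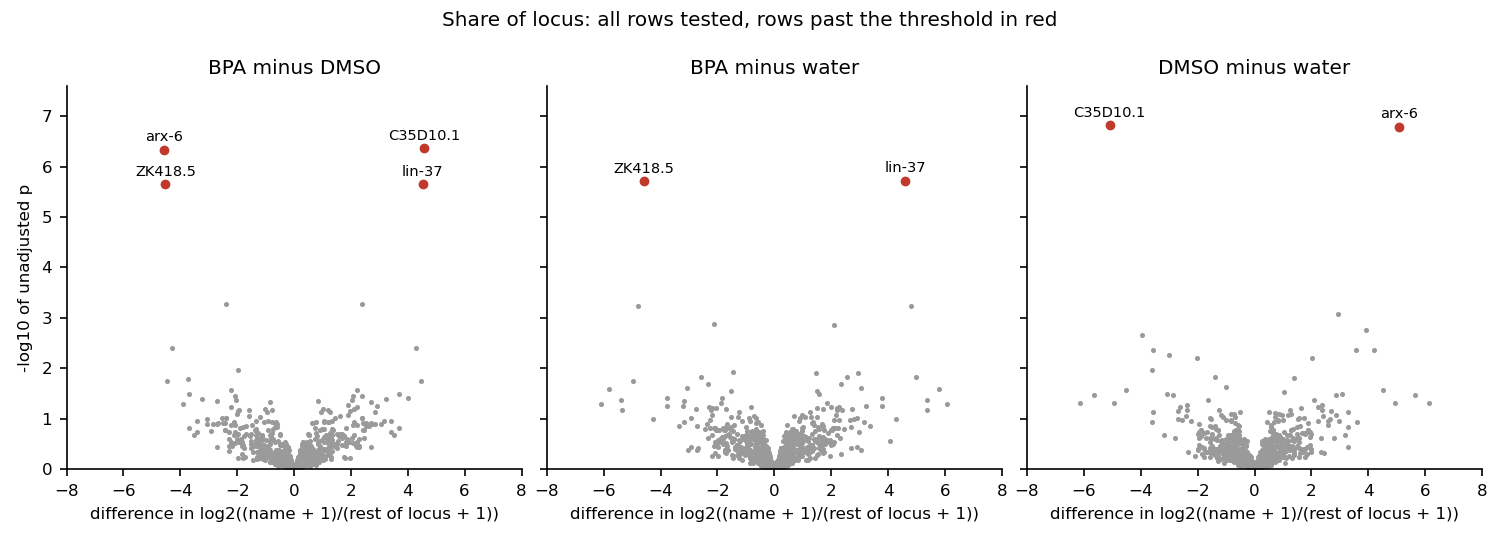
Difference in the log2 ratio of a name to the rest of its locus (x axis) against -log10 of the unadjusted p from limma (y axis) for the 842 rows, in 3 comparisons. Red points have an adjusted p under 0.05: the names of C35D10.1 with arx-6 and lin-37 with ZK418.5.

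The locus of lin-37 and ZK418.5 was divided differently in the BPA group. lin-37 is a subunit of the DREAM complex, a repressor of cell cycle and developmental genes, and the genes lie 60 bases apart on 1 strand. ZK418.5 was at 33.8, 30.0, 18.9 and 24.5 RPKM in the water libraries, 41.9, 30.0, 15.3 and 18.2 RPKM in the DMSO libraries, and 0, 0, 1.66 and 1.40 RPKM in BPA. All BPA libraries lay below all others. lin-37 was at 48.3, 28.2, 27.8 and 34.4 RPKM in the water libraries, 28.9, 33.0, 34.6 and 36.6 RPKM in the DMSO libraries, and 45.7, 54.9, 47.3 and 45.2 RPKM in BPA. The BPA libraries lay above all DMSO libraries but overlapped water 1.

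The share of lin-37 was 98.4% ± 1.86 in BPA (SD, n = 4), 57.3% ± 13.3 in DMSO and 56.3% ± 5.24 in water. On the log2 ratio scale it was 4.52 higher in BPA than in DMSO (95% interval 3.43 to 5.61, adjusted p = 0.000476, limma) and 4.59 higher than in water (3.50 to 5.68, adjusted p = 0.000823). The level of ZK418.5, tested over 7570 names, differed on the log2(RPKM + 1) scale by -4.0 ± 0.40 (SE) for BPA minus DMSO (adjusted p = 0.00188, limma) and by -4.10 ± 0.40 for BPA minus water (adjusted p = 0.00293). With the replicate block described at the end, the call on the level of ZK418.5 was lost in both comparisons. The call on this level, unlike that on the share, was also lost in both comparisons with a pseudocount of 0.1, and for BPA minus DMSO when only those 2 groups were fitted. That of lin-37 was 0.52 ± 0.17 (SE) higher than in DMSO, with an adjusted p of 1.00. The locus sum was 46.7 to 82.1 RPKM in the water libraries, 49.9 to 70.7 RPKM in the DMSO libraries and 45.7 to 54.9 RPKM in BPA, and did not pass in any comparison (adjusted p = 1.00, 0.986 and 0.999).

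The locus of C35D10.1 and arx-6 stood apart in the DMSO group. arx-6 encodes a subunit of the Arp2/3 complex, which nucleates branched actin, and lies 101 bases from C35D10.1. arx-6 was listed at 0 in all 4 water libraries, at 24.1, 26.5, 14.8 and 20.0 RPKM in the DMSO libraries, and at 0.939, 0, 0 and 0 RPKM in BPA. The DMSO libraries lay above all others. C35D10.1 was at 107, 44.7, 43.3 and 47.5 RPKM in the water libraries, 31.6, 46.5, 36.9 and 29.5 RPKM in the DMSO libraries, and 44.8, 44.8, 46.8 and 48.4 RPKM in BPA.

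arx-6 held 37.2% ± 6.35 of its locus in DMSO (SD, n = 4), 0.514% ± 1.03 in BPA and was listed at 0 in water. The log2 ratio of C35D10.1 to the rest was 4.58 higher in BPA than in DMSO (95% interval 3.65 to 5.52, adjusted p = 0.000194, limma). The row of arx-6 also passed for DMSO minus water (adjusted p = 6.75e-05, limma), where the size of the fitted ratio depends on the pseudocount because water is listed at 0. arx-6 reached 1 RPKM in 4 libraries only through the 4 DMSO libraries, and C35D10.1 was tested only because arx-6 did. The calls at this locus thus rest on rows admitted by the group where arx-6 was high, and are a description. The sum of the locus did not differ beyond its spread in any comparison, with the largest difference -0.29 ± 0.25 (SE) for BPA minus DMSO. Whether the zeros of arx-6 are absent RNA or failed estimates was not tested.

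**Figure D5:**
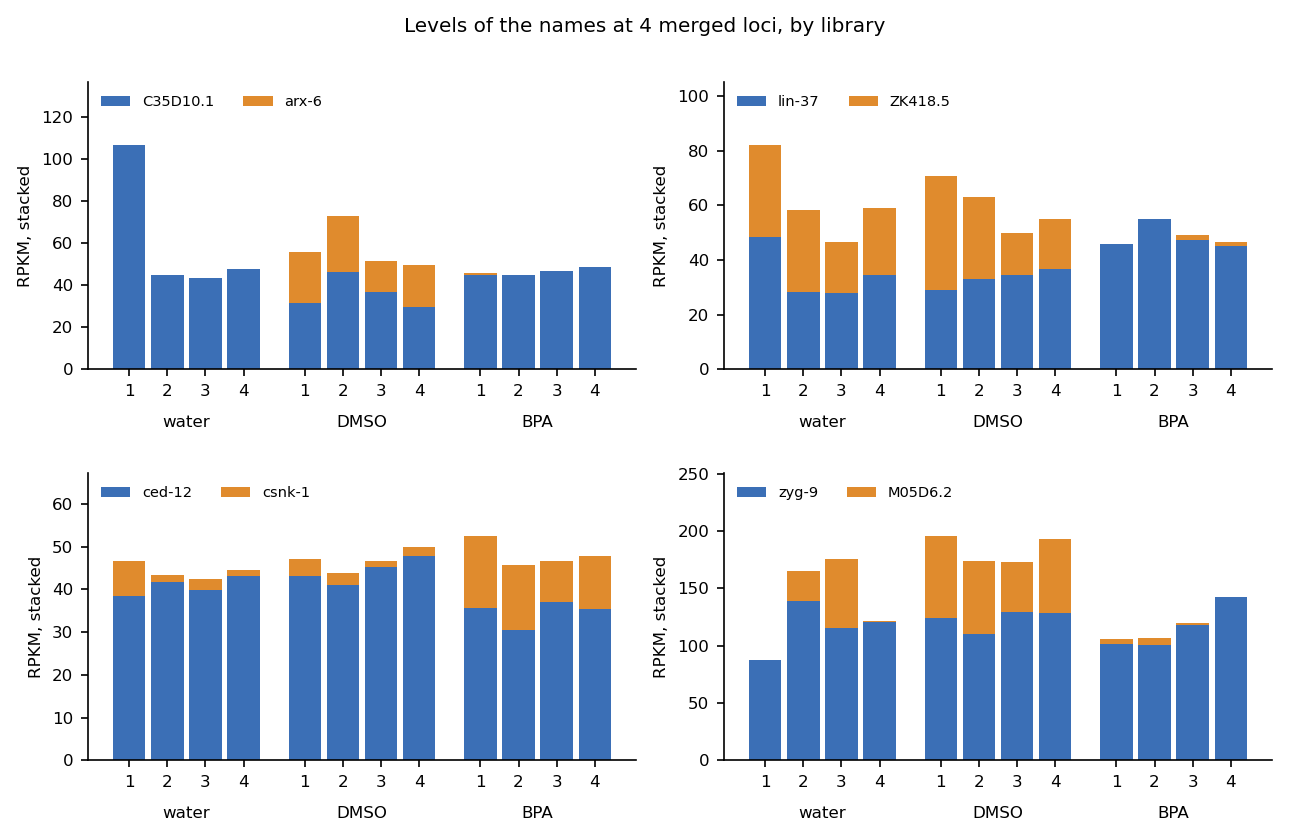
Stacked RPKM values of the names at 4 merged loci (y axis) in each of the 12 libraries (x axis, replicate number within group), for names with a mean of at least 0.5 RPKM. arx-6 is at 14.8 RPKM or more in the 4 DMSO libraries and under 1 RPKM elsewhere, ZK418.5 is at 15.3 RPKM or more in the 8 water and DMSO libraries and at most 1.66 RPKM in BPA, and csnk-1 is highest in the 4 BPA libraries, while M05D6.2 varies within water.

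The next smallest p-values for BPA minus DMSO did not pass. csnk-1, a casein kinase I of the gamma type, overlaps ced-12, a regulator of cell corpse engulfment, by 24 bases. csnk-1 was at 8.23, 1.65, 2.77 and 1.45 RPKM in the water libraries, 3.96, 2.80, 1.33 and 2.24 RPKM in the DMSO libraries, and 16.9, 15.2, 9.66 and 12.3 RPKM in BPA. All 4 BPA libraries lay above the other 8, with a share of 28.0% ± 5.86 (SD, n = 4) in BPA, 5.54% ± 2.40 in DMSO and 7.79% ± 6.69 in water. The log2 ratio was 2.39 higher in BPA than in DMSO (95% interval 1.31 to 3.47, adjusted p = 0.0758, limma) and 2.11 higher than in water (adjusted p = 0.191). Without water 1 both passed (adjusted p = 0.0102 and 0.0168), and with only BPA and DMSO fitted their difference passed too (adjusted p = 0.0317).

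At the locus of zyg-9, which encodes a microtubule polymerase of the XMAP215 family, M05D6.2 was at 0, 25.9, 60.1 and 1.35 RPKM in the water libraries, 72.0, 64.0, 43.6 and 64.7 RPKM in the DMSO libraries, and 4.32, 5.42, 1.19 and 0 RPKM in BPA. DMSO and BPA did not overlap, while water spanned both (adjusted p = 0.415, limma, for BPA minus DMSO, and 0.0467 with only those 2 groups fitted). R05D3.2 (lmbr-1), beside met-2, a methyltransferase of histone H3 lysine 9, was at 25.7, 0, 38.7 and 35.1 RPKM in the water libraries, 35.4 to 46.2 RPKM in the DMSO libraries, and 0, 0, 0 and 42.4 RPKM in BPA. The share of met-2 was 48.8% to 52.3% in DMSO and 49.2% to 100% in BPA, so that the groups overlapped through BPA 4 (adjusted p = 0.996, limma).

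At the locus of R151.8, adr-2, an adenosine deaminase that edits double-stranded RNA, was at 0, 0, 1.14 and 0 RPKM in the water libraries, 16.4, 10.6, 7.24 and 2.52 RPKM in the DMSO libraries, and 2.21, 0, 2.15 and 1.81 RPKM in BPA. DMSO lay above both other groups. The row did not pass (adjusted p = 0.996 for BPA minus DMSO and 0.233 for DMSO minus water, limma), and without DMSO 4 it passed for DMSO minus water (adjusted p = 0.0444). T20H4.5 (ndus-8), a complex I subunit at the same locus, ranged from 0 to 15.4 RPKM with all groups overlapping.

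For BPA minus water, F14D2.14 came nearest among the rows not named above. It was at 13.7, 8.17, 4.12 and 15.4 RPKM in the water libraries, 0, 0, 0 and 10.9 RPKM in the DMSO libraries, and listed at 0 in all BPA libraries, beside F14D2.8 at 1.33 to 13.5 RPKM. DMSO 4 resembled the water libraries. The adjusted p was 0.125 (limma), 5.64e-05 without DMSO 4 and 0.000366 with only BPA and water fitted. For DMSO minus water it was 0.462, and 0.000105 without DMSO 4 (limma). Without DMSO 4, or with only BPA and water fitted, F14D2.14 was above 0 in the water libraries alone. The p-values of those fits thus rest on the group where the name was high, and are a description. The 2 genes overlap by 417 bases in WBcel235, and the locus lies just above the minimum sum.

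The chemoreceptor family gene sre-36, beside F13A7.14, was at 2.07 to 3.13 RPKM in the water libraries, 3.22 to 9.36 RPKM in the DMSO libraries and 5.17 to 7.66 RPKM in the BPA libraries (adjusted p = 0.936, limma, for BPA minus water). bath-28 beside F14D2.15 was at 7.85 to 12.2 RPKM in BPA and at 0.00563 to 7.35 RPKM in the water libraries (adjusted p = 0.936). At the locus of dnj-15, a DnaJ-domain gene, the spliceosomal genes rnp-2 and rnp-3 reached 31.3 and 53.9 RPKM in single water libraries and at most 0.444 RPKM in BPA, with water also holding zeros (adjusted p = 0.936 for dnj-15).

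For DMSO minus water, pink-1, a kinase that marks damaged mitochondria, was listed at 0 in water and at 9.83, 5.68, 15.4 and 11.3 RPKM in the DMSO libraries, and at 12.1, 6.62, 0 and 0 RPKM in the BPA libraries (adjusted p = 0.367, limma, and 0.0498 without BPA 1). Y65B4BL.3 was listed at 0 in water, at 13.0 to 26.1 RPKM in the DMSO libraries, and at 0, 22.8, 0 and 26.0 RPKM in the BPA libraries (adjusted p = 0.462, limma). With only the 2 groups fitted, the adjusted p was 0.00114 for Y65B4BL.3 and 0.00358 for pink-1 (limma). In that fit only the DMSO libraries held values of these 2 names, since water is listed at 0. The p-values thus rest on the group where the names were high, and are a description. K05C4.4, beside hmp-2, a beta-catenin of cell junctions, was at 8.51 to 22.8 RPKM in the water libraries and 1.2 to 4.47 RPKM in the DMSO libraries (adjusted p = 0.484). In these 3 cases DMSO and water did not overlap, and BPA spanned or overlapped both.

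The summed values of merged loci gave 0 calls in any comparison, among 829 tested together with all other loci (limma, 7351 loci in all, of which 0.0136%, 0.0% and 0.0136% were called for BPA minus DMSO, BPA minus water and DMSO minus water). At an unadjusted p under 0.05 there were 5, 18 and 19 of the 829, against 43, 182 and 121 of all 7351 loci. Groups did not overlap for 9, 13 and 6 of the 829, against 1.06%, 2.01% and 0.803% of all 7351 loci. Over the level of single names, 7570 were tested, 1302 of them at merged loci, and 2, 1 and 1 passed (0.0264%, 0.0132% and 0.0132% of the 7570). Those were arx-6 and ZK418.5 for BPA minus DMSO, ZK418.5 for BPA minus water and arx-6 for DMSO minus water. These were all the names called among the 7570. arx-6 was admitted to this test only through its DMSO libraries. At an unadjusted p under 0.05 there were 35, 56 and 38 of the 1302, against 66, 205 and 129 of all 7570, and groups did not overlap for 19, 21 and 16, against 1.08%, 2.02% and 0.885% of the 7570. The median interval half-width was 0.51 on the log2 scale for sums and 0.68 for names.

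The loci nearest the minimum sum were Y50D4A.6 with Y54G9A.12 (mean 10.03 RPKM), Y73B6BL.288 (10.1 RPKM) and F14D2.8 with F14D2.14 (10.2 RPKM) just above it. Just below lay frm-7 with C51F7.4 (9.98 RPKM), Y54F10BM.12 with Y54F10BM.13 (9.92 RPKM) and cutl-20 with shc-1 (9.82 RPKM). The names of the first pair are annotated on different chromosomes in WBcel235.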

How the data were processed

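RNA from dissected F3 gonads was sequenced in 12 libraries, 4 each for water, DMSO and BPA. Per the labels' protocols, cDNA was made with the SMART-Seq v4 low-input kit, libraries with Nextera XT from 1 ng of cDNA, and reads were single-end of 50 bp. Per the submitters' processing notes, HISAT, StringTie and build ce10 were used, with no versions or annotation given in the sources used here. Each deposited table lists 49201 transcripts with 1 RPKM value (headed FPKM in BPA 1 and used alongside the others), and 10269 of them lie at merged loci. A kit of this kind does not mark strand.

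Values were summed per locus identifier and per name with pandas 2.3.3. Names were matched to the Ensembl release 115 annotation of WBcel235, and 1527 of 1574 matched. Gaps and strands were computed within that build, and no coordinates of ce10 were used. limma 3.58.1 (R 4.3.3, with trend) was fitted to log2(value + 1), or to log2((name + 1)/(rest + 1)) for shares, without a replicate block, on rows with at least 1 RPKM in at least 4 libraries. The fit was checked on simulated data. Named loci followed a rule: called rows and the 5 smallest p-values each way, the 10 highest loci with a second name of 5%, the 10 most and 10 least variable, the 5 with the most names, listed gene families and the threshold's neighbours. Members and lists were chosen with earlier results of these data known. The alternatives tried were other pseudocounts, filters, samples, weights, scales and terms.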

Additional observations from a re-analysis of the deposited data

Results flagged for a closer look

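In 72 groups of 4 values at named loci, 8 held a library far from the other 3, and chance flags about 1 group in 20. The 72 groups do not cover all shares and sums at the 64 named loci. The share of C35D10.1 in BPA 1 was 97.9%, against 100% in the other BPA libraries. The sum of the C35D10.1 locus was 107 RPKM in water 1, against 43.3 to 47.5 RPKM. The share of lin-37 in water 2 was 48.5%, against 58.5% to 59.5%. The share of rpl-12 was 39.4% in water 1, against 99.1% to 99.9%, and 22.1% in DMSO 1, against 99.6% to 99.9%. The sum of the rps-24 locus was 4322 RPKM in water 1, against 961 to 1234 RPKM, and that of the rpl-26 locus 1308 RPKM, against 432 to 543 RPKM. The sum of the act-2 and act-1 locus was 657 RPKM in DMSO 2, against 754 to 761 RPKM.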

How the results depend on the processing

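In the fit of shares the 2 called loci kept their direction and stayed past the threshold wherever they were tested, with adjusted p-values of at most 0.0259 (limma). The main filter admitted the rows of C35D10.1 and arx-6 only through the DMSO libraries, so for that locus this is a description. A mean of at least 10 RPKM left arx-6 untested, which gave 2 called rows for BPA minus DMSO and 0 for DMSO minus water, and 1 and 0 called names. Fitting only the 2 groups compared gave 8, 4 and 6 called rows for BPA minus DMSO, BPA minus water and DMSO minus water, and 1, 2 and 3 called names. The called rows include those of F14D2.14, pink-1 and Y65B4BL.3, with the limit given above. Array weights gave 4 rows and 2 names for BPA minus water. A pseudocount of 0.1 gave 1 name for BPA minus DMSO and 0 for BPA minus water. The cause was not tested. Leaving out 1 library gave 4 to 6, 2 to 4 and 2 to 5 rows, and 2 to 3, 1 to 2 and 1 to 2 names, in that order of comparisons. Without water 1 or without DMSO 4 there were 4 rows and 2 names for BPA minus water, and for DMSO minus water 5 rows and 2 names without DMSO 4 and 4 rows without BPA 1. Sums of merged loci gave 0 calls under each of the 21 alternatives run. At a level of 50 RPKM, 89 names were at 0 in 1 library and past the level in another, and with a minimum sum of 50 RPKM leading names changed at 131 loci.

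The replicate numbers were not taken to pair the libraries, by a rule that needed every same-numbered pair to correlate over 0.1. Deviations of same-numbered libraries correlated between -0.12 and 0.14 for shares, 4 of 12 pairs over 0.1, between -0.06 and 0.44 for locus sums, 6 of 12 over 0.1, and between -0.07 and 0.34 for names, 5 of 12 over 0.1. This rule cannot exclude that some libraries were paired. The highest value, 0.44 for locus sums, was that of DMSO 3 with BPA 3. With the replicate block the share fit called 4, 2 and 2 rows, the fit of locus sums 0, and the fit of names 1, 0 and 1, without ZK418.5. Depth is not recorded in the tables, so no interval for counting error could be given. A name with no reads and a name whose estimate failed both appear as 0, and reads shared by overlapping names or near-identical genes may have been divided between them.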
